A study of Homo sapiens with 9 samples.

Results

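Transcript levels of 30 genes of glycolysis and of glucose and lactate transport were followed in HUES8 cells, an established line of human embryonic stem cells, during differentiation to definitive endoderm. The genes were taken by symbol as the members of these pathway steps, with no threshold on their values, although earlier results of these data were known. All 30 were found among the 19907 genes of the count table. They cover glucose uptake, each enzyme step from glucose to pyruvate, the enzymes that set the level of the sugar bisphosphate activating phosphofructokinase, lactate dehydrogenase, and the carriers that move lactate across the plasma membrane. The series asks how synthesis and oxidation of fatty acids bear on formation of endoderm. The 9 libraries formed 3 groups of 3, all from wild-type cells. DE had no inhibitor, C75 had the fatty acid synthase inhibitor of that name, and ETO had an inhibitor of fatty acid oxidation. All groups received 100 ng/mL activin A, 50 ng/mL Wnt-3a and 0.2% albumin without fatty acids for 2 days, and Wnt-3a was then withdrawn. Doses and timing of the inhibitors were not given in the sources used here, and a single cell line was used. Whether replicate libraries stem from separate cultures is not stated by the labels, so p-values reflect the spread among libraries alone, and that spread may be technical.

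Glycolysis splits glucose into pyruvate in the cytosol and yields ATP without oxygen. Hexokinase traps the sugar in the cell, phosphofructokinase commits it to breakdown, pyruvate kinase makes the final ATP, and lactate dehydrogenase regenerates the NAD that the pathway uses. Human pluripotent stem cells are known for a high rate of glycolysis with release of lactate, and many steps are encoded by several genes whose products differ in regulation and tissue distribution.

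The libraries held between 17379711 and 20812616 counts in DE, 18320778 and 18895819 counts in C75, and 17743968 and 21510997 counts in ETO. The 30 genes together held 1.30% ± 0.0135 (SD, n = 3) of all counts in DE, 1.36% ± 0.00583 in C75 and 1.25% ± 0.00382 in ETO. Of the 10 definitive endoderm markers examined, all passed the filter on low counts, and their summed CPM (counts scaled to a common library size) ran from 10040 to 10462 in DE, 15780 to 16149 in C75, and 5409 to 5531 in ETO. CER1 carried most of these sums (means of 7031, 11404 and 3847 CPM). All 10 genes rose in C75, and in ETO 9 fell and 1, LHX1, rose by 0.60 on the log2 scale (edgeR). The 8 pluripotency markers summed to 3109 to 3226 CPM in DE, 2774 to 2815 in C75 and 3834 to 3923 in ETO. LIN28A and TDGF1 carried most of these sums in DE and C75, while in ETO POU5F1 had the highest mean of the 8 genes. Over the 8 genes the median log2 fold change was -1.02 in C75 and 1.18 in ETO. Of them, 2 rose and 6 fell in C75, and 6 rose and 2 fell in ETO (edgeR). POU5F1 had means of 295 CPM in DE, 61.6 in C75 and 1138 in ETO, and SOX2 23.0, 3.38 and 86.9. Of 8 mesoderm markers 5 passed the filter, with sums of 152 to 161 CPM in DE, 92.5 to 95.2 in C75 and 392 to 401 in ETO, and MEOX1 had no count in any library. KDR carried most of these sums (means of 121, 58.0 and 347 CPM). Of the 5 genes, 2 fell and none rose in C75, and 4 rose and none fell in ETO (edgeR). Ectoderm and neural markers, 4 of 7 passing, summed to 430 to 446 CPM in DE, 344 to 357 in C75 and 842 to 865 in ETO, with NEUROG1 at 0 in all 9 libraries. NES carried these sums (means of 367, 260 and 829 CPM), and of the 4 genes 2 rose and 2 fell in ETO, where PAX6 fell by 2.20 and SOX10 fell by 2.01 on the log2 scale (edgeR). Trophoblast and amnion markers, 4 of 6 passing, summed to 31.5 to 34.3 CPM in DE, 16.5 to 18.1 in C75 and 24.9 to 27.3 in ETO. GATA3 carried most of these sums (means of 29.2, 15.1 and 17.8 CPM), and of the 4 genes 2 rose and 1 fell in ETO (edgeR). Visceral endoderm and liver markers, 4 of 5 passing, summed to 33.5 to 37.1 CPM in DE, 36.6 to 40.8 in C75 and 10.8 to 12.5 in ETO. Of the 4 genes, 1 rose and 1 fell in C75, and 1 rose and 3 fell in ETO (edgeR). AFP was the gene that fell in C75 and rose in ETO, there by 2.90 on the log2 scale to a mean of 1.72 CPM. FOXF1 (mesoderm), SOX1 (ectoderm), AFP and TTR (liver) had no count in C75, but their means in DE were also very low. These were 0.047 CPM for FOXF1, 0.12 for SOX1, 0.23 for AFP and 0.016 for TTR. FOXF1, SOX1 and TTR stayed under the filter and were not tested. Marker levels thus moved with the groups beside every gene described here, and their part in the results was not tested. In such bulk libraries, fewer cells of a type and less RNA per cell cannot be told apart.

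Against DE, the glycolysis genes moved in both directions under each inhibitor. The 28 genes that passed the filter were tested with edgeR's quasi-likelihood test, with Benjamini-Hochberg adjustment over all 14177 genes tested, and called at an adjusted p below 0.05. In C75, 21 of 28 were called (75%, beside 63.1% of all genes tested). Of these, 8 rose (28.6% of the 28, where 31.2% of all genes tested rose) and 13 fell (46.4%, where 31.9% of all genes fell). Scaling by library totals alone left 5 in place of the 8 that rose, since PGAM1, ENO1 and LDHA no longer passed. The median log2 fold change was -0.08, beside -0.00465 over all genes. In ETO, 25 of 28 were called (89.3%, beside 69.9% of all genes). There 18 rose (64.3%, against 34.7% of all genes) and 7 fell (25.0%, against 35.3%), with a median log2 fold change of 0.22 beside -0.00339. Between the inhibitors 24 of 28 differed (85.7%, beside 79.2% of all genes), of which 7 genes were higher in C75 than in ETO (25.0%, against 39.9% of all genes) and 17 were lower (60.7%, against 39.2%).

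Changes of at least 1.5-fold were fewer. In C75 they numbered 6 of 28 (21.4%, beside 19.8% of all genes), in ETO 10 of 28 (35.7%, beside 27.8%) and between C75 and ETO 13 of 28 (46.4%, beside 42.1%). By direction, 3 genes rose in C75 (10.7%, where the share of all genes was 7.31%) and 3 fell (10.7%, where it was 12.5%). ADPGK, PKM and ENO3 were the 3 that rose by that much, and ALDOC, ENO2 and SLC16A3 the 3 that fell. In ETO, 8 rose by at least 1.5-fold (28.6%, against 16.2% of all genes), namely SLC2A1, HK1, HK2, PFKP, PFKFB2, PFKFB3, ALDOA and ALDOC. SLC2A3 and PFKL were the 2 that fell by that much in ETO (7.14%, against 11.6%). Between C75 and ETO, 4 genes were at least 1.5-fold higher in C75 (14.3%, against 19.0%) and 9 were lower (32.1%, against 23.1%). The comparisons with DE share the same 3 DE libraries, so their values are set side by side and not counted as separate evidence of one another.

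**Figure D1:**
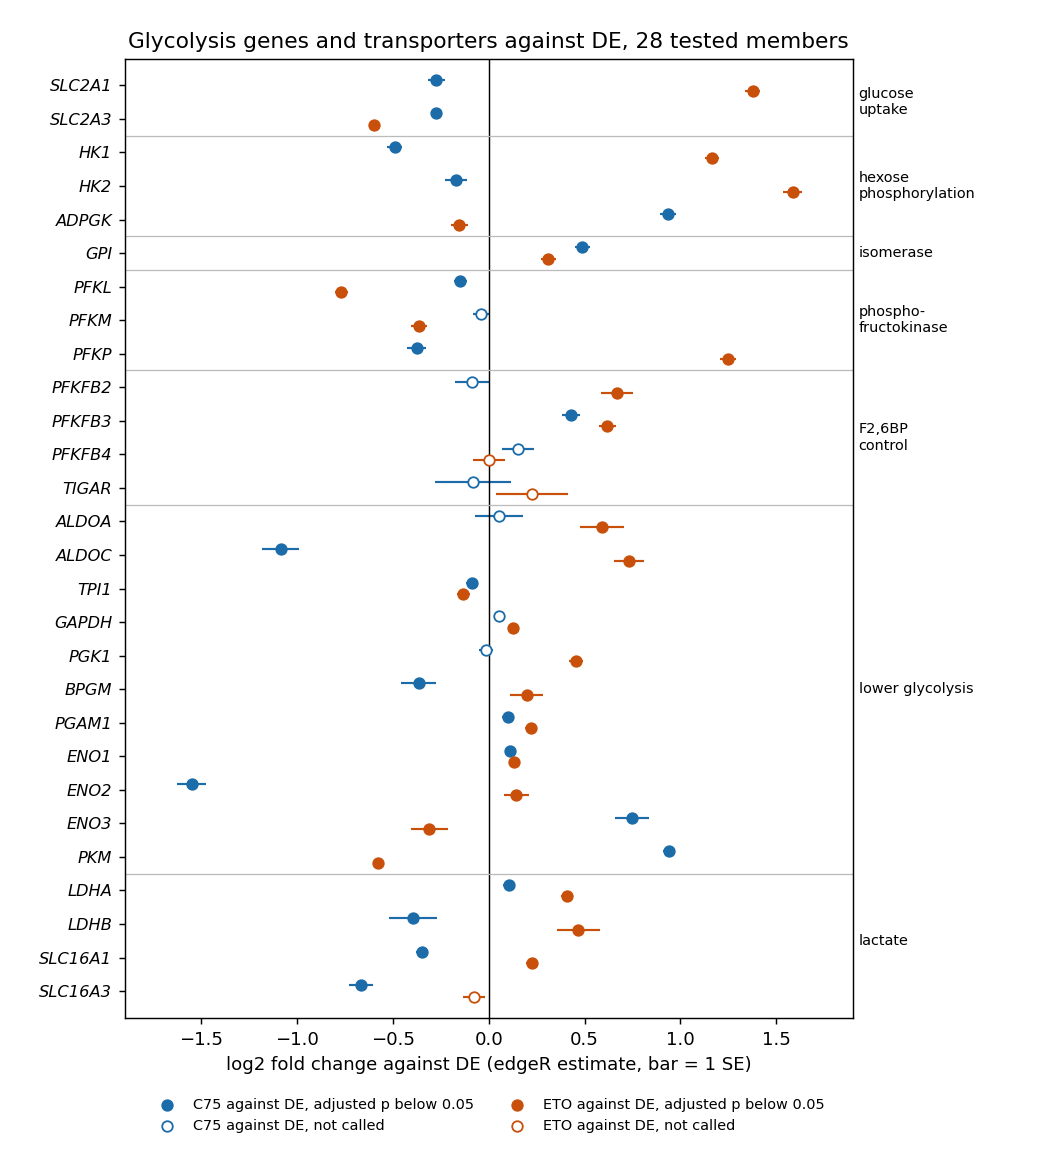
Log2 fold changes (horizontal axis) of the 28 tested genes, ordered by role, for C75 against DE and ETO against DE, with bars of 1 SE and filled points for genes called at an adjusted p below 0.05. HK2, PFKP and HK1 lie far to the right in ETO and slightly to the left in C75, and PKM and ADPGK lie to the right in C75 and to the left in ETO.

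The first step, entry of glucose, is served here by 2 carriers, of which the more abundant fell in each inhibitor group and the other fell in C75 and rose in ETO. SLC2A3, the high-affinity neuronal-type glucose carrier GLUT3 (chr12:7919230-7936275, minus strand, GRCh38), had 3412, 3398 and 3479 CPM in DE, 2821, 2858 and 2808 in C75, and 2255, 2264 and 2263 in ETO. No library of a group overlapped another group, and ETO was the lowest. SLC2A3 fell by 0.28 on the log2 scale in C75 (SE 0.026, adjusted p = 1.9e-11, edgeR) and by 0.60 in ETO (SE 0.026, adjusted p = 7.8e-21). A share of 16.1% of the 50-base words of its transcripts also occurs in 22 other genes, so some of its reads may have been split with them. SLC2A1, the widely expressed carrier GLUT1 (chr1:42925375-42959176, minus strand), had 78.0, 83.5 and 77.6 CPM in DE, 68.3, 64.0 and 65.5 in C75, and 215, 200 and 206 in ETO. It rose 2.60-fold in ETO (log2 fold change 1.38, SE 0.040, adjusted p = 1.5e-25) and fell by 0.27 on the log2 scale in C75 (SE 0.045, adjusted p = 2.7e-06), leaving the 3 groups apart.

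Levels of different genes were compared as RPKM, the scaled CPM divided by the gene length in kilobases that the authors gave. SLC2A3 remained the higher of the 2 carriers in every library. It stood at 557 ± 7.0 RPKM (SD, n = 3) in DE, 459 ± 4.18 in C75 and 367 ± 0.801 in ETO, beside 16.9 ± 0.698, 14.0 ± 0.462 and 43.8 ± 1.56 for SLC2A1. The share of SLC2A1 in the sum of both was 2.94% in DE, 2.95% in C75 and 10.7% in ETO. That sum was 574 ± 6.55 RPKM in DE, 473 ± 3.93 in C75 and 411 ± 0.854 in ETO, so it was lowest in the group where SLC2A1 was highest.

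**Figure D2:**
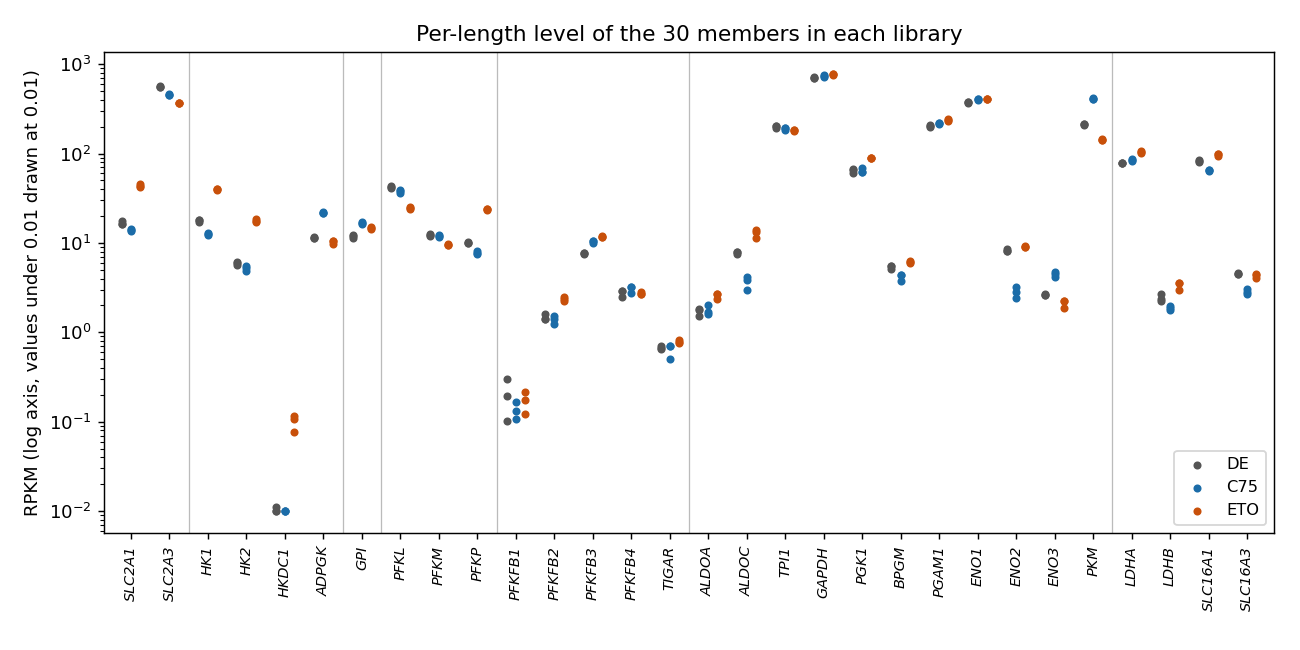
RPKM (log axis) of each of the 30 genes in all 9 libraries, coloured by group and ordered by role, with values under 0.01 drawn at 0.01. GAPDH, SLC2A3, ENO1, PKM, TPI1 and PGAM1 lie highest, replicate points nearly coincide for these genes, and HKDC1 lies lowest.

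Hexose phosphorylation included the largest rise of a tested gene of the set in ETO. HK1, the hexokinase found in most tissues (chr10:69269984-69401884, plus strand), had 107, 115 and 114 CPM in DE, 81.4, 79.1 and 77.8 in C75, and 251, 253 and 248 in ETO. It rose 2.25-fold in ETO (log2 fold change 1.17, SE 0.036, adjusted p = 8.1e-25, edgeR) and fell by 0.49 on the log2 scale in C75 (SE 0.040, adjusted p = 8.3e-13). The inducible, insulin-responsive HK2 (chr2:74833981-74893359, plus strand) had 34.4, 37.0 and 35.8 CPM in DE, 29.7, 33.7 and 31.5 in C75, and 106, 111 and 104 in ETO. All ETO libraries of HK2 lay far above the rest, and the C75 libraries lay just below the lowest DE library. HK2 rose 3.00-fold in ETO (log2 fold change 1.59, SE 0.050, adjusted p = 1.1e-24), the largest rise of the 28 tested genes in that comparison. Its fall in C75, by 0.17 on the log2 scale (SE 0.058, adjusted p = 0.010), was no longer called without C75 replicate 1 (-0.14, adjusted p = 0.052). Summed over HK1 and HK2, the level was 23.6 ± 0.856 RPKM in DE, 17.8 ± 0.279 in C75 and 57.5 ± 1.05 in ETO.

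Further enzymes act at this step. ADPGK, a glucokinase that uses ADP in place of ATP (chr15:72751369-72785846, minus strand), had 66.9, 67.7 and 68.6 CPM in DE, 132, 128 and 128 in C75, and 61.8, 58.0 and 62.7 in ETO. Its C75 libraries lay above both other groups, a rise of 1.91-fold (log2 fold change 0.94, SE 0.041, adjusted p = 6.9e-20), and in ETO it fell by 0.15 on the log2 scale (SE 0.044, adjusted p = 0.0024). An antisense gene overlaps 9.10% of its exon bases, and strand use in the counting is not given in the sources used here. HKDC1, a hexokinase-like gene next to HK1, had 1, 0 and 0 counts in DE, 0 in each C75 library, and 11, 9 and 6 in ETO. It stayed under the filter and was not tested. Its summed level in ETO was at least 7.81-fold higher than in C75, taking a floor of 3 counts over the group, and 24.9 times that in DE (95% interval 4.09 to 1019, counting error only). The ratio to DE rests on 1 count in DE with no floor, so it does not compare with the value for C75. GPI, which turns glucose phosphate into fructose phosphate, had 131, 128 and 122 CPM in DE, 175, 178 and 181 in C75, and 158, 152 and 162 in ETO. It rose under both inhibitors, 1.40-fold in C75 (log2 fold change 0.49, SE 0.038, adjusted p = 2.7e-13) and 1.24-fold in ETO (log2 fold change 0.31, SE 0.038, adjusted p = 6.8e-09).

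The phosphofructokinase genes moved in different directions in ETO, while the sum of the 3 had group means of 57.8 to 64.5 RPKM. Windows of 250 bases before annotated starts are shown here for PFKP and HK2, which both rose in ETO and fell in C75, and for PFKL, which fell in both. They come from RefSeq on GRCh38.p14 and run 5′ to 3′ on the gene's strand. HK2 (chr2:74834920-74835169, plus strand) and PFKP (chr10:3068939-3069188, plus strand) are each 1 of several windows of the gene, chosen because they hold the motif and lie outside annotated exons. PFKL has a single window (chr21:44299803-44300052, plus strand). Capitals mark ACGTG on either strand, a form of the core of the hypoxia response element, which is also part of the E-box CACGTG. Other forms of that core were not marked or counted.
HK2: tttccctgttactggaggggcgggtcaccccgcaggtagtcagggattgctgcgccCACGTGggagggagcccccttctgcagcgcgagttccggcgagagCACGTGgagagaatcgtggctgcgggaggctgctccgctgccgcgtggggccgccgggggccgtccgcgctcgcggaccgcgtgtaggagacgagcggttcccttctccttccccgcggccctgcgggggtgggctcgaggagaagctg
PFKP: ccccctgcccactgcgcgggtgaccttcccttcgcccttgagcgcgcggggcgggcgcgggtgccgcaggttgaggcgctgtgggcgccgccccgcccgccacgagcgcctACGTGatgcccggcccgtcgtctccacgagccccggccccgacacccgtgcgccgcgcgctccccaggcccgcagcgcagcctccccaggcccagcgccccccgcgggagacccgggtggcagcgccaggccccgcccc
PFKL: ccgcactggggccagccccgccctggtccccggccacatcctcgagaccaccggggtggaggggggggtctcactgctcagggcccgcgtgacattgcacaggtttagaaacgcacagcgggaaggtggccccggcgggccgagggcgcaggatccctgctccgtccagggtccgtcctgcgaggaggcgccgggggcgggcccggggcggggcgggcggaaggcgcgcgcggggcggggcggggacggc
The HK2 window holds 4 matches of ACGTG, and because CACGTG reads the same on both strands each of its 2 copies gives 2 of them. The PFKP window holds 1 match, while the other windows of PFKP hold none, and the PFKL window holds 0. Of the 54 windows found for 27 of the genes, 18 (33.3%) hold ACGTG, beside 18.5% of all 35116 windows of the same length. CACGTG is in 6 of the 54 (11.1%), beside 6.34% of all windows. Some windows of HK1 and of PFKM overlap, so the 54 are not separate. Base content was not matched, and whether these shares differ was not tested. Genes that moved alike differed in the motif. SLC2A1, with 1 window, and HK1, with 7, fell in C75 and rose in ETO like HK2 and PFKP and hold no match, while TPI1, which fell in both like PFKL, has a match in 1 of its 2 windows. Of the 8 genes with a window that fell in C75 and rose in ETO, 5 hold ACGTG in at least 1. So do 3 of the 5 that rose in both and 3 of the 3 that rose in ETO alone. It is also held by 1 of 2 that fell in both, by the 1 that fell in C75 alone and by the 1 that fell in ETO alone. Of the 2 called in neither 1 holds it, and of the 3 that rose in C75 and fell in ETO 0 do. Genes with several windows have more chances of a match, so these shares do not compare with the 18.5% per window. A match describes these letters in these windows only.

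PFKL, the liver-type subunit and the most abundant of the 3 in DE (chr21:44300051-44327376, plus strand), had 377, 382 and 369 CPM in DE, 349, 324 and 344 in C75, and 226, 214 and 222 in ETO. It fell by 0.77 on the log2 scale in ETO (SE 0.034, adjusted p = 3.1e-20, edgeR) and by 0.15 in C75 (SE 0.034, adjusted p = 0.00027). PFKP, the platelet-type subunit (chr10:3066333-3137712, plus strand), had 49.3, 48.7 and 48.4 CPM in DE, 36.1, 37.4 and 39.2 in C75, and 116, 117 and 114 in ETO. PFKP moved the other way from PFKL in ETO, a rise of 2.38-fold (log2 fold change 1.25, SE 0.044, adjusted p = 2.4e-23), and it fell by 0.38 on the log2 scale in C75 (SE 0.050, adjusted p = 5.8e-08). PFKM, the muscle-type subunit, had 92.2, 90.1 and 88.5 CPM in DE, 90.5, 87.7 and 85.3 in C75, and 68.6, 72.1 and 69.7 in ETO. Its DE and C75 libraries overlapped (log2 fold change -0.04, SE 0.042, adjusted p = 0.41), and in ETO it fell by 0.36 on the log2 scale (SE 0.042, adjusted p = 2.1e-09). Scaling by library totals alone made the C75 difference of PFKM pass the test (-0.10, adjusted p = 0.037).

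By length, PFKL made up 65.3% ± 0.377 (SD, n = 3) of the 3 subunits' RPKM in DE, 65.8% ± 0.842 in C75 and 42.4% ± 1.06 in ETO. PFKP made up 15.6% ± 0.179, 13.5% ± 0.686 and 41.1% ± 0.608 in the same order. In ETO the pair stood almost level, at 24.7 ± 0.725 RPKM for PFKL and 24.0 ± 0.339 for PFKP. Their linear ratio of 4.17 in DE and 4.89 in C75 was 1.03 in ETO. The subunits' total was 64.5 ± 1.01 RPKM in DE, 57.8 ± 1.54 in C75 and 58.3 ± 0.399 in ETO.

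**Figure D3:**
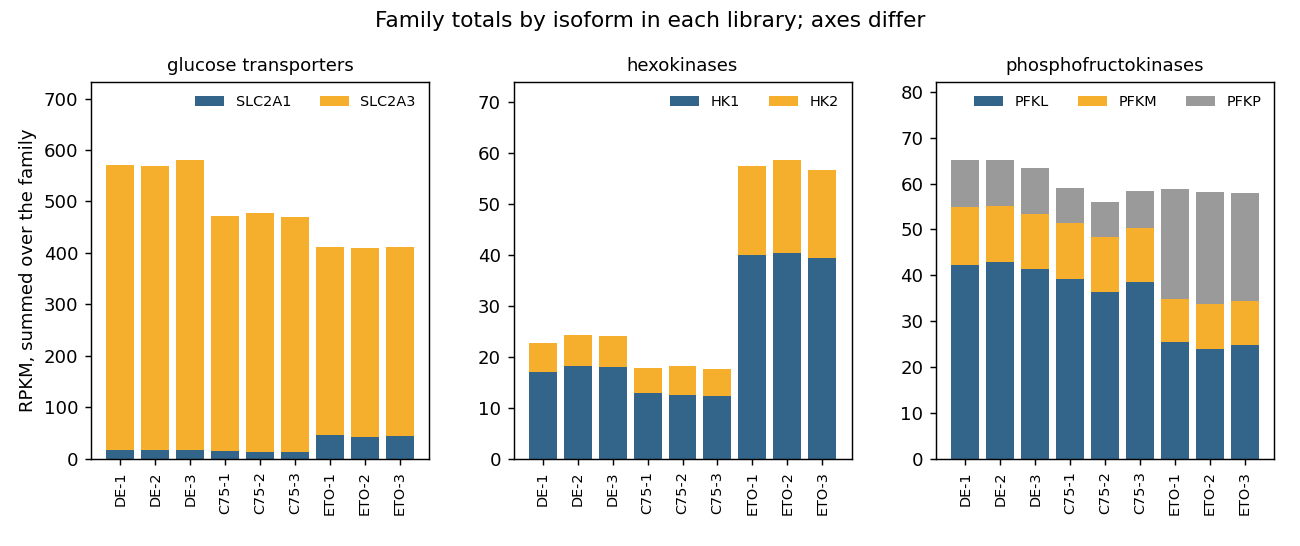
Summed RPKM (vertical axis, different for each panel) of the glucose transporters, hexokinases and phosphofructokinases in every library, with each bar split by gene. The phosphofructokinase total lies between 56.0 and 65.2 RPKM in all libraries while the PFKP part is largest in ETO, and the hexokinase total is largest in ETO.

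Ratios between genes of one step were taken within each library, where the scaling of libraries cancels. All 15 pairs differed between the 3 groups by an exact permutation test over 1680 arrangements of the libraries, with Benjamini-Hochberg adjusted p from 0.0089 to 0.036 over the 15 pairs. The smallest p this test can give is 0.0036. How many other gene pairs would pass was not computed, and 63.1% to 79.2% of all single genes were called in the 3 comparisons. Several pairs share a gene, so the 15 are not separate results. They include HK1 to HKDC1 and pairs with ALDOA, LDHB and TIGAR, whose limits are given below. Between 2 groups the two-sided exact test cannot go below 0.1, and the smallest adjusted p over the 45 such tests was 0.125, so pairwise differences are given by size and overlap. ENO2 to ENO3 had the widest shift of the pairs between C75 and DE. Log2 ratios of this pair were 1.59, 1.61 and 1.73 in DE, -0.73, -0.48 and -0.78 in C75, and 2.01, 2.25 and 2.03 in ETO. ENO2 was thus the higher of the 2 genes in DE and ETO and the lower in C75. Log2 ratios of SLC2A1 to SLC2A3 were -5.07, -4.96 and -5.10 in DE, -4.99, -5.10 and -5.04 in C75, and -3.01, -3.12 and -3.07 in ETO. Only the ETO libraries stood apart for this pair, by 1.98 from the DE mean. Log2 ratios of PFKL to PFKP were 2.05, 2.09 and 2.04 in DE, 2.39, 2.23 and 2.25 in C75, and 0.08, -0.02 and 0.07 in ETO, and no groups overlapped.

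Other pairs shifted as follows. The linear ratio of HK1 to HK2 was 3.01 in DE, 2.42 in C75 and 2.26 in ETO, with C75 and ETO libraries overlapping. PFKM to PFKP went from 1.22 in DE to 1.54 in C75 and 0.400 in ETO. PFKL to PFKM went from 3.42 to 3.16 and 2.58, and SLC16A1 to SLC16A3 from 18.3 to 22.9 and 22.6, in the same order. ENO1 exceeded ENO2 by 45.4 times in DE, 145 times in C75 and 45.0 times in ETO. The ratio of HK1 to HKDC1 rests on so few HKDC1 counts that its C75 to ETO difference turned from 2.35 to -0.37 when the pseudocount was 5 counts in place of 0.5, and it is not read further.

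**Figure D4:**
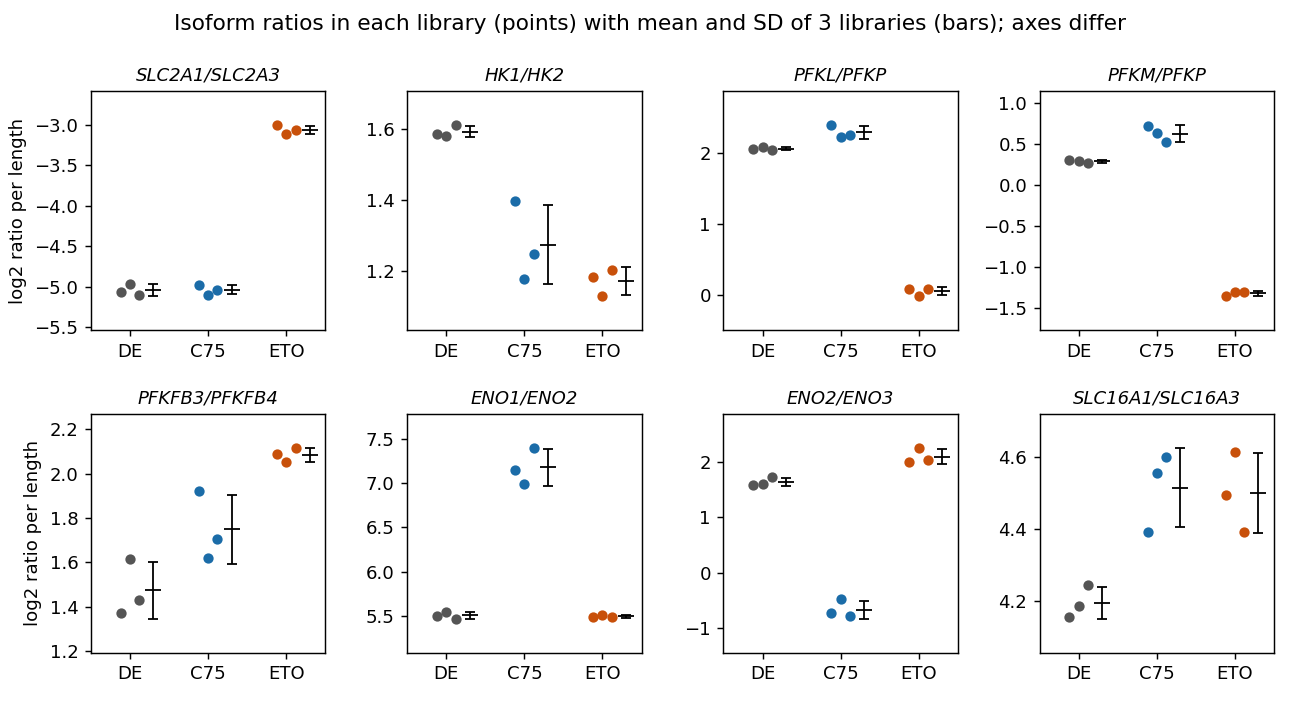
Log2 ratio per length (vertical axis, different for each panel) of the genes of 8 pairs, with points for single libraries and bars for the mean and SD of the 3 libraries of a group. ETO points of PFKL to PFKP and of SLC2A1 to SLC2A3 stand apart from the other groups, and C75 points of ENO2 to ENO3 fall below 0 where the other groups lie above it.

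Genes of the PFKFB family make and break the bisphosphate that activates phosphofructokinase. PFKFB3, whose product strongly favours synthesis, had 45.6, 46.9 and 47.3 CPM in DE, 64.0, 60.5 and 63.7 in C75, and 70.6, 72.5 and 71.4 in ETO. It rose under both inhibitors, 1.35-fold in C75 (log2 fold change 0.43, SE 0.047, adjusted p = 1.2e-09, edgeR) and 1.54-fold in ETO (log2 fold change 0.62, SE 0.046, adjusted p = 5.2e-14). PFKFB2, the heart form, had 14.5, 14.5 and 16.5 CPM in DE, 15.4, 14.5 and 12.8 in C75, and 22.7, 24.3 and 25.4 in ETO. Only ETO stood apart for PFKFB2, with a rise of 1.59-fold (adjusted p = 6.6e-09). PFKFB4 ran from 15.3 to 19.6 CPM over the 9 libraries and TIGAR, a phosphatase that removes the same activator, from 2.03 to 3.27, and neither passed the test in any comparison, although without C75 replicate 1 PFKFB4 was called higher in C75 than in DE (0.20, adjusted p = 0.048) and than in ETO (0.21, adjusted p = 0.032). PFKFB1, the liver form, held 24 counts over the DE libraries, 15 over C75 and 21 over ETO, stayed under the filter, and its ratio of C75 to DE was 0.663 (95% interval 0.324 to 1.32, counting error only). By length, PFKFB3 exceeded PFKFB4 by 2.78 times in DE, 3.36 in C75 and 4.24 in ETO.

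In lower glycolysis, most of the abundant enzymes changed by small amounts. GAPDH, which makes the NADH of the pathway, had 2110, 2117 and 2098 CPM in DE, 2187, 2141 and 2234 in C75, and 2324, 2293 and 2276 in ETO. It rose by 0.12 on the log2 scale in ETO (SE 0.027, adjusted p = 1.0e-04, edgeR) and did not pass in C75 (0.05, adjusted p = 0.080), where scaling by library totals turned its sign. ENO1, the ubiquitous enolase, had 1925, 1993 and 2015 CPM in DE, 2122, 2141 and 2148 in C75, and 2154, 2171 and 2172 in ETO. ENO1 rose by 0.11 in C75 (adjusted p = 0.00049) and by 0.13 in ETO (adjusted p = 5.4e-05), and both groups lay above DE, although the C75 call was lost with library totals alone. TPI1, the triose phosphate isomerase, had 518, 555 and 554 CPM in DE, 490, 518 and 522 in C75, and 497, 488 and 498 in ETO. TPI1 fell by 0.13 in ETO (adjusted p = 0.00052), and its fall of 0.09 in C75 (adjusted p = 0.020), where DE and C75 libraries overlapped, was lost without DE replicate 2 or C75 replicate 1. Of the 50-base words of GAPDH, 17.7% also occur in 14 other genes, and of those of TPI1 12.6% occur in 2 others. An antisense gene overlaps 14.2% of the exon bases of GAPDH.

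PGK1, which makes the first ATP of the pathway, passed the test in ETO and not in C75 (log2 fold change -0.015, adjusted p = 0.74). It had 337, 366 and 374 CPM in DE, 343, 377 and 345 in C75, and 495, 488 and 491 in ETO, a rise of 1.37-fold in ETO (log2 fold change 0.45, SE 0.037, adjusted p = 3.8e-13, edgeR). PGAM1, the phosphoglycerate mutase, ran from 511 to 538 CPM in DE, 552 to 571 in C75 and 589 to 626 in ETO, and rose by 0.22 on the log2 scale in ETO (adjusted p = 1.2e-07). Its rise of 0.10 in C75 (adjusted p = 0.0060) was lost without C75 replicate 3, with upper-quartile scaling and with library totals alone. Of the 50-base words of PGAM1, 30.7% also occur in 10 other genes. BPGM, which makes the bisphosphoglycerate that tunes haemoglobin in red cells, had 13.0, 14.1 and 13.9 CPM in DE, 11.2, 9.51 and 11.0 in C75, and 15.5, 15.3 and 16.1 in ETO. BPGM fell by 0.37 in C75 (adjusted p = 0.00086), and its rise of 0.20 in ETO (adjusted p = 0.039) was lost in 6 of 17 alternative fits.

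PKM, pyruvate kinase, lay further above ETO in C75 than any other of the 28 tested genes. This gene (chr15:72199029-72231822, minus strand) had 1800, 1820 and 1853 CPM in DE, 3466, 3477 and 3545 in C75, and 1225, 1211 and 1235 in ETO. The 3 groups were far apart, with C75 highest and ETO lowest. PKM rose 1.92-fold in C75 (log2 fold change 0.94, SE 0.027, adjusted p = 2.8e-25, edgeR) and fell by 0.58 on the log2 scale in ETO (SE 0.027, adjusted p = 8.0e-20). Directly compared, C75 was 2.86-fold above ETO (log2 fold change 1.51, SE 0.027, adjusted p = 1.9e-32). By length it stood at 213 ± 3.17 RPKM in DE, 408 ± 5.03 in C75 and 143 ± 1.43 in ETO. The gene yields the splice forms PKM1 and PKM2, which counts per gene do not separate.

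The tissue-restricted enolases moved in opposite directions in C75. ENO2, the neuronal enolase (chr12:6913745-6923698, plus strand), had 34.5, 34.6 and 36.9 CPM in DE, 12.1, 13.7 and 10.3 in C75, and 39.0, 38.6 and 39.4 in ETO. It fell by 1.55 on the log2 scale in C75 (SE 0.078, adjusted p = 2.4e-18, edgeR), the largest fall of the 28 tested genes in that comparison. In ETO its libraries lay just above DE, and that rise of 0.14 (SE 0.065, adjusted p = 0.049) was lost in 9 of 17 alternative fits. ENO3, the muscle enolase (chr17:4948092-4957131, plus strand), had 11.5, 11.4 and 11.2 CPM in DE, 20.2, 19.1 and 17.8 in C75, and 9.72, 8.08 and 9.63 in ETO. ENO3 rose 1.68-fold in C75 (log2 fold change 0.75, SE 0.089, adjusted p = 6.0e-09) and fell by 0.31 in ETO (SE 0.098, adjusted p = 0.0055), a call lost without ETO replicate 2. ENO1 still made up 97.2% of the enolase RPKM in DE, 98.2% in C75 and 97.3% in ETO.

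ALDOC, the brain-type aldolase, fell in C75 and rose in ETO. It had 23.1, 21.8 and 23.3 CPM in DE, 8.79, 11.2 and 12.2 in C75, and 39.3, 33.4 and 40.9 in ETO, and no groups overlapped. The fall in C75 was 1.09 on the log2 scale (SE 0.096, adjusted p = 7.2e-12, edgeR), and the rise in ETO was 1.66-fold (log2 fold change 0.73, SE 0.079, adjusted p = 4.5e-10). Between the inhibitors ALDOC was 3.53-fold lower in C75 (adjusted p = 2.4e-19), the widest difference among the 28 tested genes in that comparison. An antisense gene overlaps 10.1% of the exon bases of ALDOC. ALDOA, the aldolase of muscle and most other tissues, had 7.12, 6.91 and 5.97 CPM in DE, 6.65, 6.27 and 7.85 in C75, and 10.4, 9.24 and 10.5 in ETO. It rose by 0.59 on the log2 scale in ETO (SE 0.12, adjusted p = 3.4e-05), while C75 overlapped DE (log2 fold change 0.05, adjusted p = 0.73, with the sign turned by library totals alone).

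The levels of ALDOA, LDHB and TIGAR are uncertain, because nearly all of their coding sequence lies inside exons of a second annotated gene on the same strand. In GENCODE release 29, this share was 96.0% for TIGAR (inside AC008012.1), 93.8% for ALDOA (inside AC093512.2) and 93.5% for LDHB (inside AC010197.2). The next highest among the 30 genes were GPI at 10.3% and PFKP at 4.58%. In DE the RPKM of ALDOA was 1.70 and that of LDHB 2.44, beside 707 for GAPDH and 78.6 for LDHA. The overlapping gene of ALDOA held 12 to 39 counts per library, and those of LDHB and TIGAR held 0 in all 9. How reads in shared exons were counted is not given in the sources used here, and the part of the overlap in these levels was not tested. For the same reason the ratios to these genes, ALDOA to ALDOC (0.219 in DE, 0.486 in C75 and 0.199 in ETO), LDHA to LDHB (32.2, 45.4 and 30.7) and PFKFB3 to TIGAR (11.2, 16.1 and 14.7), may not give the balance of the transcripts.

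**Figure D5:**
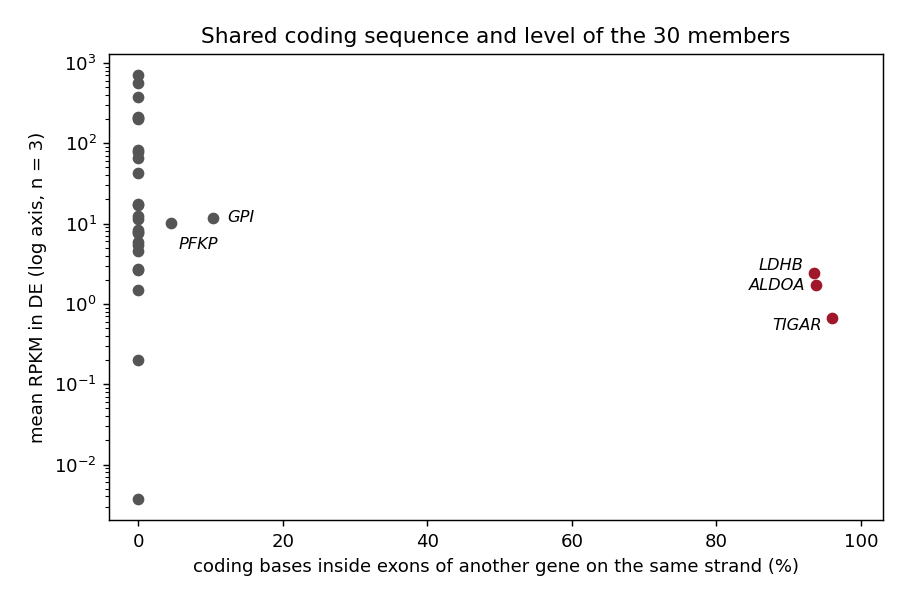
Mean RPKM in DE (log axis, n = 3) of each of the 30 genes against the percent of its coding bases inside exons of another gene on the same strand. TIGAR, ALDOA and LDHB lie at the far right at low levels, and all other genes lie at 10.3% or less.

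Of the 4 genes of lactate production and transport, 3 rose and none fell in ETO, and 1 rose and 3 fell in C75, where 34.7% of all tested genes rose in ETO and 31.2% rose and 31.9% fell in C75. LDHA, the lactate dehydrogenase subunit that favours pyruvate reduction (chr11:18394388-18408425, plus strand), had 484, 491 and 488 CPM in DE, 520, 538 and 518 in C75, and 644, 664 and 631 in ETO. It rose 1.33-fold in ETO (log2 fold change 0.41, SE 0.030, adjusted p = 4.5e-14, edgeR). In C75 it rose by 0.11 (SE 0.030, adjusted p = 0.0027), a call lost with upper-quartile scaling and with library totals alone. LDHB, the heart-type subunit, had 7.12, 6.74 and 7.98 CPM in DE, 5.52, 5.83 and 5.27 in C75, and 8.99, 10.6 and 10.7 in ETO. Within its uncertain level, LDHB fell by 0.39 on the log2 scale in C75 (adjusted p = 0.0071) and rose 1.38-fold in ETO (adjusted p = 0.00046).

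SLC16A1, the proton-coupled carrier MCT1, had 428, 442 and 456 CPM in DE, 342, 351 and 349 in C75, and 519, 529 and 501 in ETO. It fell by 0.35 on the log2 scale in C75 (SE 0.032, adjusted p = 2.6e-11, edgeR) and rose 1.17-fold in ETO (SE 0.032 on the log2 scale, adjusted p = 1.3e-07), with no overlap between groups. SLC16A3, the carrier MCT4 of strongly glycolytic cells, had 40.6, 41.1 and 40.7 CPM in DE, 27.5, 25.2 and 24.4 in C75, and 39.0, 36.6 and 40.4 in ETO. It fell by 0.67 on the log2 scale in C75 (SE 0.062, adjusted p = 3.0e-11), where all 3 libraries lay below the rest, and did not pass in ETO (-0.08, adjusted p = 0.23). The sum of both carriers was 87.7 ± 2.67 RPKM in DE, 68.2 ± 0.759 in C75 and 102 ± 2.49 in ETO.

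Compared directly, C75 lay below ETO for both hexokinases, PFKP, SLC2A1 and ENO2. HK2 was 3.39-fold lower in C75 (log2 difference -1.76, SE 0.051, adjusted p = 4.0e-26, edgeR), HK1 3.16-fold lower (-1.66, SE 0.038, adjusted p = 3.1e-29) and PFKP 3.08-fold lower (-1.62, SE 0.046, adjusted p = 1.4e-26). SLC2A1 was 3.14-fold lower (-1.65, SE 0.041, adjusted p = 5.4e-28) and ENO2 3.24-fold lower (-1.69, SE 0.077, adjusted p = 1.9e-20). Besides PKM, the genes at least 1.5-fold higher in C75 than in ETO were ADPGK (2.13-fold, adjusted p = 1.3e-22), ENO3 (2.08-fold, adjusted p = 1.1e-12) and PFKL (1.54-fold, adjusted p = 7.6e-18). PFKFB4, TIGAR, TPI1 and ENO1 did not pass this test, and ENO1 passed it with upper-quartile scaling (-0.09, adjusted p = 0.0037) and with library totals alone (-0.10, adjusted p = 0.00094).

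Genes of adjoining pathways were taken from lists, and of each list those with at least a 2-fold change and a mean of at least 5 CPM are named. Of 11 pentose phosphate genes, which make NADPH and ribose, 10 were tested, and 3 rose and 4 fell in C75 while 5 rose and 2 fell in ETO. Of all genes tested, 31.2% rose and 31.9% fell in C75, and 34.7% rose and 35.3% fell in ETO. TKT, the transketolase that links this branch to glycolysis, had a mean of 534 CPM in DE, 384 in C75 and 943 in ETO (log2 fold changes -0.48 and 0.82, adjusted p = 7.6e-16 and 3.0e-23, edgeR). PRPS2, which makes the ribose donor of nucleotide synthesis, had 17.6, 7.31 and 30.6 CPM in the same order. Of 19 tested genes of the glycogen and hexosamine branches, 8 rose and 8 fell in C75 (31.2% and 31.9% of all genes), and 10 rose and 3 fell in ETO (34.7% and 35.3%). UGP2, which makes UDP-glucose, had a mean of 196 CPM in DE, 133 in C75 and 416 in ETO. GFPT2, which starts hexosamine synthesis, had 56.8, 39.5 and 129 CPM, and PYGL, the liver glycogen phosphorylase, 61.4, 44.5 and 95.9 CPM. All 5 named genes passed the test in both comparisons with DE, with adjusted p at most 5.6e-10 (edgeR).

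Of 9 tested genes among other isozymes and gluconeogenesis, 2 rose and 3 fell in C75 (31.2% and 31.9% of all genes), and 3 rose and 2 fell in ETO (34.7% and 35.3%). PCK2, the mitochondrial enzyme that makes phosphoenolpyruvate, had a mean of 27.9 CPM in DE, 17.6 in C75 and 75.6 in ETO, a rise of 2.71-fold in ETO (adjusted p = 6.5e-22, edgeR). Among 20 other tested hexose and monocarboxylate carriers and their partners, 8 rose and 4 fell in C75 (31.2% and 31.9% of all genes), and 11 rose and 6 fell in ETO (34.7% and 35.3%). SLC2A6, the carrier GLUT6, had 23.6 CPM in DE, 46.7 in C75 and 20.3 in ETO, and SLC2A13, a myo-inositol carrier, 14.0, 9.13 and 19.7 CPM. Of 8 tested genes of the glycerol phosphate, sorbitol and methylglyoxal branches, 3 rose and 1 fell in C75 (31.2% and 31.9% of all genes), and 4 rose and 3 fell in ETO (34.7% and 35.3%). AKR1B1, the aldose reductase that turns glucose into sorbitol, had 157 CPM in DE, 278 in C75 and 106 in ETO, and GPD2, the mitochondrial glycerol phosphate dehydrogenase, 60.9, 40.9 and 102 CPM. These 4 genes passed the test in both comparisons with DE, with adjusted p at most 0.0095.

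Of 21 tested regulators that act on glycolysis genes, 5 rose and 11 fell in C75 (31.2% and 31.9% of all genes), and 8 rose and 7 fell in ETO (34.7% and 35.3%). TXNIP, which restrains glucose uptake and is itself induced by glucose, had 12.2, 11.9 and 12.6 CPM in DE, 2.53, 1.15 and 1.76 in C75, and 23.1, 20.3 and 20.4 in ETO. The C75 libraries were the lowest, and TXNIP fell by 2.76 on the log2 scale there (SE 0.15, adjusted p = 3.4e-17, edgeR) and rose 1.74-fold in ETO (adjusted p = 6.0e-09). MYC, a transcription factor known to bind E-boxes of glycolysis genes, had 38.9, 43.0 and 39.1 CPM in DE, 21.6, 21.3 and 24.5 in C75, and 122, 111 and 114 in ETO. MYC fell by 0.84 in C75 (SE 0.064, adjusted p = 1.9e-13) and rose 2.88-fold in ETO (adjusted p = 1.1e-23), with no overlap between groups. The hypoxia factors on this list did not meet the rule for naming. HIF1A had means of 367 CPM in DE, 387 in C75 and 319 in ETO, and ARNT 71.2, 61.0 and 59.3. In the same order HIF3A had 28.7, 23.1 and 16.2 CPM and EPAS1 2.76, 2.81 and 8.56. A link of any regulator to the motif was not tested. LIN28B, a binder of let-7 precursors, had means of 143 CPM in DE, 87.4 in C75 and 210 in ETO, and PRKAA2, a catalytic subunit of AMP-activated kinase, 11.2, 6.42 and 14.3 CPM, and both passed the test in each comparison with DE, with adjusted p at most 0.0020. PPARGC1A, with a mean over all libraries under 5 CPM, moved the other way from TXNIP, MYC, LIN28B and PRKAA2. Its means were 2.65 CPM in DE, 11.1 in C75 and 1.19 in ETO. It rose by 2.04 on the log2 scale in C75 (adjusted p = 1.0e-12, edgeR) and fell by 1.16 in ETO (adjusted p = 5.9e-05).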

How the data were processed

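Gene expression was measured by RNA sequencing of total RNA in 9 libraries, 3 per group. The authors deposited a table of raw counts per gene symbol and a gene length in bases for each gene. HISAT2 2.1.0, featureCounts 1.6.4 and the build GRCh38 are listed, without a role, per the submitters' processing notes. The annotation release, strand setting and handling of shared reads were not given in the sources used here. All 19907 symbols matched GENCODE release 29, and 19875 lengths (99.84%) equalled its merged exons, as did those of all 30 genes described, so positions are from that release. Exon overlap and shared 50-base words were computed from it. Of the 30 genes, 21 have some exon overlap with another gene.

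Counts were filtered with filterByExpr (14177 genes, 99.962% of counts), scaled by TMM and tested with edgeR 4.0.16 in R 4.3.3, with group alone in 1 fit of the 9 libraries (common biological coefficient of variation 0.0335). The fit and the exact tests were checked on simulated data. P-values were adjusted by Benjamini-Hochberg over all genes, and SE were derived from the F statistics. Ratios used counts plus 0.5 per length. The alternatives were DESeq2 1.42.0, other scalings and filters, a replicate block, fits of 6 libraries and leaving out each library. Depth limits the genes under the filter, and intervals cover counting error only. All 30 genes are named. A gene of a neighbouring list is named when called with at least a 2-fold change in some comparison and a mean of at least 5 CPM, at most 4 per list. PPARGC1A, HIF1A, ARNT, EPAS1 and HIF3A are given outside this rule. The genes, lists and tests were chosen with earlier results of these data known.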

Additional observations from a re-analysis of the deposited data

How the results depend on the processing

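Of 1428 member fold changes under alternative settings, 1382 kept their direction and their side of the threshold, 27 lost the call, 5 gained it and 14 turned direction. The lost calls belonged to 9 of 70 called results, and no called result turned direction in the settings run. At least a 1.5-fold change was met by 3 genes higher and 3 lower in C75 against DE, 8 higher and 2 lower in ETO against DE, and 4 higher and 9 lower in C75 against ETO. With library totals alone, 5 genes in place of 8 rose in C75. Turned directions were the C75 to DE difference of TIGAR (-0.18 to 0.047 when single libraries were left out) and of ALDOA (-0.063 to 0.11 likewise, -0.0079 with library totals), and that of GAPDH with library totals (-0.0072). For PFKFB4 in ETO against DE the value was -0.013 without a filter, -0.0022 with only the 6 libraries compared, and -0.048 to 0.033 when single libraries were left out. TPI1 in C75 against ETO was -0.023 with upper-quartile scaling and -0.035 with library totals. The ratio of HK1 to HKDC1 in C75 against ETO was -0.37 with a pseudocount of 5. The number of pairs past the 3-group test ran from 13 to 15 when single libraries were left out.

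Libraries with the same replicate number did not deviate together (correlations of -0.030 to 0.072, beside -0.083 to 0.057 for different numbers). A replicate block left 17 genes higher in ETO than in DE, in place of 18, and ENO2 was the gene that no longer passed (0.14, adjusted p = 0.051, edgeR). All other member counts in the 3 comparisons were equal with the block. Low counts limit HKDC1 and PFKFB1, and the unknown handling of shared exons limits ALDOA, LDHB and TIGAR.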

Other observations

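Shared coding sequence was looked at over the whole table, after the low counts of ALDOA, LDHB and TIGAR had been seen. In 892 of 19907 genes at least 90% of coding bases lie inside exons of another gene on the same strand in GENCODE release 29. Of these, 34.1% had no count in any of the 9 libraries, and their median total over the libraries was 5 counts. Among the other 19015 genes, 9.06% had no count and the median total was 1967. Which of the 892 are expressed in these cells, and the part of the overlap in these counts, was not tested.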
